A study of Mus musculus with 31 samples.

Results

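The genes described here are the ligands, receptors and binding protein of the corticotropin-releasing factor (CRF) family, 6 of the 55421 mouse genes in the count table. They are Ucn (urocortin), Ucn3 (urocortin 3), Crh (CRF itself), Crhr1 and Crhr2 (the CRF receptors) and Crhbp (the CRF binding protein). The members were chosen by gene name. Ucn, Crhr1, Crhr2 and Crhbp were found by symbol in the authors' normalized table, and Ucn3 and Crh by Ensembl identifier in the raw count table. The remaining ligand gene of the family, Ucn2 (urocortin 2), is given beside them. Per the labels and the description of the series, the samples were single red neurons of wild-type genotype from acute brainstem slices of ChAT-IRES-Cre; tdTomato mice, aspirated after patch-clamp recording and made into SmartSEQ2 libraries. The 18 lateral olivocochlear (LOC) neurons came from the lateral superior olive and the 13 medial olivocochlear (MOC) neurons from the ventral nucleus of the trapezoid body, and neither group was treated otherwise. The Cre driver at the choline acetyltransferase gene marks cholinergic cells of either nucleus and any cell that once expressed the driver. Ages and animals are not given in the labels, and which cells share an animal is not known here.

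CRF and the urocortins are secreted peptides that act on receptors of the secretin class, which couple mainly to the stimulatory G protein and raise cyclic AMP. CRF binds the receptor encoded by Crhr1 with high affinity, urocortin binds both receptors, and urocortins 2 and 3 prefer the receptor encoded by Crhr2. The binding protein is secreted and holds CRF and urocortin away from the receptors. In rodents, urocortin is a known peptide of LOC neurons and their terminals under the inner hair cells, and CRF receptors are found in the cochlea.

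The upstream regions of the ligand gene and of the receptor genes are shown because the results turn on which of them was transcribed in which cell. Of the 7 genes, 5 had an entry in the RefSeq promoter table of GRCm38.p6, and 250 bases before the annotated start are printed on the gene's strand for Ucn (chr5:31138896-31139145, minus strand), Crhr1 (chr11:104132531-104132780, plus strand) and Crhr2 (chr6:55133017-55133266, minus strand). Capitals mark the cyclic AMP response element TGACGTCA, searched on both strands, and TATAA on the gene's strand; the matches do not overlap.
Ucn: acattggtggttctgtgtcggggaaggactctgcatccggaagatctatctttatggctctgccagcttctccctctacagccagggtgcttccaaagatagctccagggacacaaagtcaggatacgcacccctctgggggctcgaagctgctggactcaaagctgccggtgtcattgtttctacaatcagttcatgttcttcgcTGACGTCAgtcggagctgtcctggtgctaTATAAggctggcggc
Crhr1: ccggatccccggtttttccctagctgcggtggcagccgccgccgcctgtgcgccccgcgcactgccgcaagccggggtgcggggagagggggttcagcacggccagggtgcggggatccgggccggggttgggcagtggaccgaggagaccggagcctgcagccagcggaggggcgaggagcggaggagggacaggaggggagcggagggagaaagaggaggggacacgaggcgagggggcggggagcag
Crhr2: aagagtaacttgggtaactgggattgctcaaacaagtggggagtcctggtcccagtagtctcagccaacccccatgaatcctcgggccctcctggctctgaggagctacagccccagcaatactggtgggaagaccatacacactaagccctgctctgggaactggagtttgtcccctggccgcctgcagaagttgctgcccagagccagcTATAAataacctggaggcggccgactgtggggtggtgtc
The RefSeq start lies 66 bases upstream of the GENCODE start used for gene coordinates below for Ucn and 74 bases upstream for Crhr1, and both annotations share the start of Crhr2. The Ucn window held TGACGTCA at 44 to 37 bases and TATAA at 15 to 11 bases before the RefSeq start. TGACGTCA was present in 508 of all 32851 promoter windows of this length (1.55%) and TATAA in 16%. The Crhr2 window held TATAA and the Crhr1 window neither motif, in a sequence of 74.8% G and C against 54% for Ucn and 57.6% for Crhr2. A match describes the letters of the window and not a bound site.

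The libraries held between 356412 and 1404896 counts in LOC cells and between 598028 and 2627174 in MOC cells. Each library is 1 cell and each group counts as 1 sample, so no test was run; intervals cover counting error of reads without molecular identifiers, and SDs are spreads between cells. Levels are counts per 1000000 counts on mouse genes (CPM). The labels were checked against Chat, Slc18a3 and Slc5a7, which encode the enzyme and the transporters of cholinergic neurons. Their summed level ran from 0 to 1742 CPM in LOC cells (median 416) and from 0 to 1667 CPM in MOC cells (median 11). Fewer than 10 of these reads were present in 4 LOC and 5 MOC cells. A wider cholinergic and olivocochlear list of 7 genes adds Isl1, Gata2, Gata3 and Prph. Its median was 774 CPM in LOC and 302 CPM in MOC cells. MOC cell 4, with 3 reads of the 3 cholinergic genes, held 1872 CPM on it. MOC cell 2, with 45, held 734 CPM, and MOC cell 8, with 0, held 2.76 CPM. Summed inhibitory markers (Gad1, Gad2, Slc32a1 and Slc6a5, 4 of 4 read in each group) ran from 0 to 949 CPM in LOC and from 10.1 to 2990.2 CPM in MOC cells. They stood above the sum of Chat, Slc18a3 and Slc5a7 in 8 LOC and 9 MOC cells. The 6 oligodendrocyte markers ran from 21.3 to 237600 CPM in LOC and from 357 to 120880 CPM in MOC cells, and the 7 microglial markers from 31.1 to 1944 CPM in LOC and from 40.7 to 7531 CPM in MOC cells. The part of these other cell types in the results below was not tested, apart from the restricted values given beside them.

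Ucn, the urocortin gene (chromosome 5, 31138063 to 31138829, minus strand, GRCm38), was the abundant ligand of the family and was higher in LOC cells. Its level was 0 CPM in the lowest LOC cell, 80.1 CPM at the median and 3022 CPM in the highest, LOC cell 15, while it was 0 CPM in the lowest MOC cell and at the median, and 5.58 CPM in the highest, MOC cell 2. Of 18 LOC cells, 12 held at least 5 reads (66.7%; 41.0 to 86.7, exact 95% binomial interval), while 1 of 13 MOC cells did (7.69%; 0.195 to 36.0). The groups overlapped, because LOC cells 9, 14, 16 and 17 held no Ucn read and LOC cell 6 held 1. All 9 MOC reads lay in MOC cells 2, 4, 8 and 12, at 5, 1, 1 and 2 reads. After each cell was thinned to 350000 counts, 14 LOC cells and 2 MOC cells kept a read, against 14 and 4 unthinned.

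**Figure D1:**
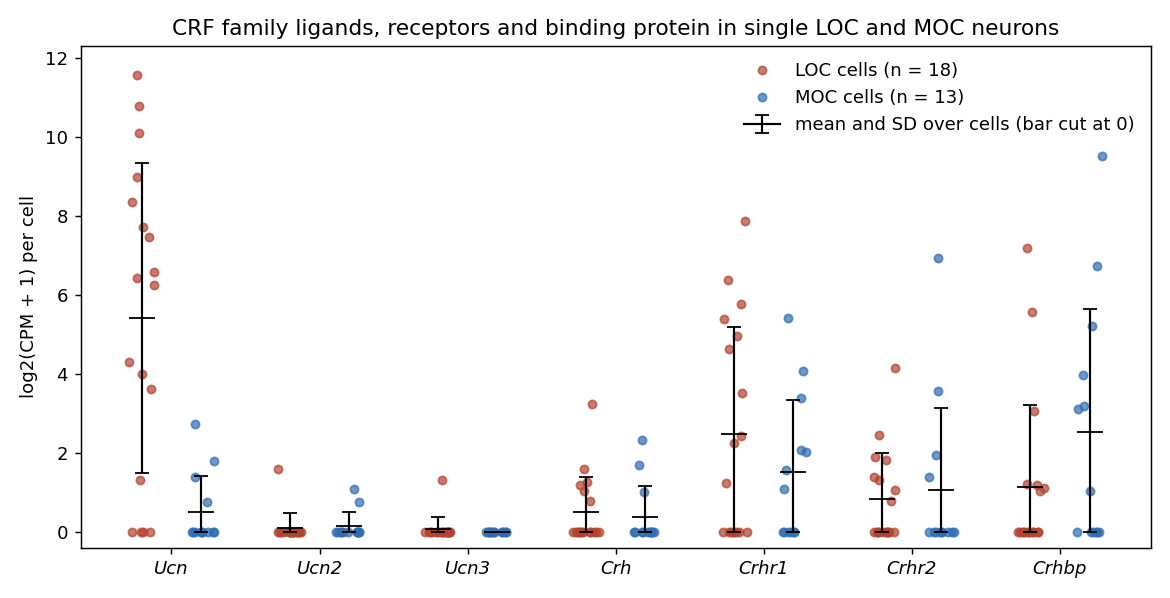
Level of each CRF family gene in each cell, as log2(CPM + 1), for 18 LOC cells (left of each pair) and 13 MOC cells (right). Points are cells, and bars are the mean and SD over cells. LOC cells spread for Ucn between 0 and 3022 CPM, while all MOC cells lie at or below 5.58 CPM.

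Ucn reached the ranks of the most abundant transcripts in some LOC cells. It was the 14th most abundant gene in LOC cell 15, the 30th in LOC cell 18 and the 55th in LOC cell 8, whereas it ranked 5765 in LOC cell 1 and 6028 in LOC cell 10. LOC cell 15 gave 42.3% of all LOC reads of Ucn, and the summed LOC level was 286 CPM without it (95% Poisson interval 277 to 296) and 464 CPM with it. In MOC the summed level was 0.66 CPM (0.30 to 1.25). The difference of the means of log2(CPM + 1), LOC minus MOC, was 4.90, the 3rd highest of the 17754 measured genes, a gene being measured where 25% or more of the LOC or the MOC cells held a read of it. Its SD over LOC cells, 3.93, exceeded that of 99.8% of the 1150 measured genes whose LOC mean lay within 0.5 of its own; their median SD was 2.21. With 1 cell left out at a time the difference stayed between 4.54 (without LOC cell 15) and 5.22 (without LOC cell 9). It turned to -1.03 without cells holding over 1% of their counts on oligodendrocyte markers, which leaves LOC cell 14 alone and 4 MOC cells; at a limit of 10%, with 14 LOC and 11 MOC cells, it was 5.25.

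A size rule served to describe differences between the groups: the summed CPM had to be 2 or more times higher, the mean log2(CPM + 1) higher by 1 or more, and 25% or more of the cells of the higher group had to hold a read. All members but Ucn3 were among the measured genes, and Ucn met the rule in LOC and Crhbp in MOC. The rule was met in LOC by 6.07% and in MOC by 5.67% of all measured genes (1078 and 1007 genes; 844 and 1325 with median-of-ratios library sizes), and 1 member of 6 in each direction is too few to be set apart from these shares.

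The absence of Ucn reads from some LOC cells went with few cholinergic reads. Among cells with 10 or more reads summed across the 3 cholinergic genes, 13 of 14 LOC cells held Ucn, while 1 of 8 MOC cells did, MOC cell 2 with 5 reads. The summed level in these cells was 542 CPM for LOC (529 to 555) and 0.55 CPM for MOC (0.18 to 1.29), and the groups overlapped, since LOC cell 17 held no Ucn read and LOC cell 6 held 1. A limit of 50 reads, chosen after seeing the data, left 12 LOC and 5 MOC cells; it leaves out LOC cells 6 and 17 and MOC cell 2, which made the groups overlap, so their separation at this limit follows in part from the limit. At that limit the LOC cells held 12 Ucn reads in the lowest, 138.5 at the median and 2799 in the highest, and MOC cells 1, 3, 5, 6 and 10 held none. These 5 MOC libraries held 4592390 counts, in which a count of 0 allows a level of up to 0.653 CPM, and the summed LOC level was 626 CPM (611 to 641).

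Over the 18 LOC cells the Ucn level followed the cholinergic level, with a Spearman rho of 0.89 to the sum of Chat, Slc18a3 and Slc5a7. It was 0.85 without the 2 cells farthest from the median cholinergic level and 0.78 in the 14 LOC cells with at least 10 cholinergic reads. Taken singly, rho was 0.83 for Slc18a3, 0.61 for Slc5a7 and 0.60 for Chat. The rho of Ucn to the total counts of the library was 0.56 over all LOC cells and 0.33 in the 14 cells. These values describe 18 cells whose points share a library each, and CPM of genes in the same library are not independent.

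**Figure D2:**
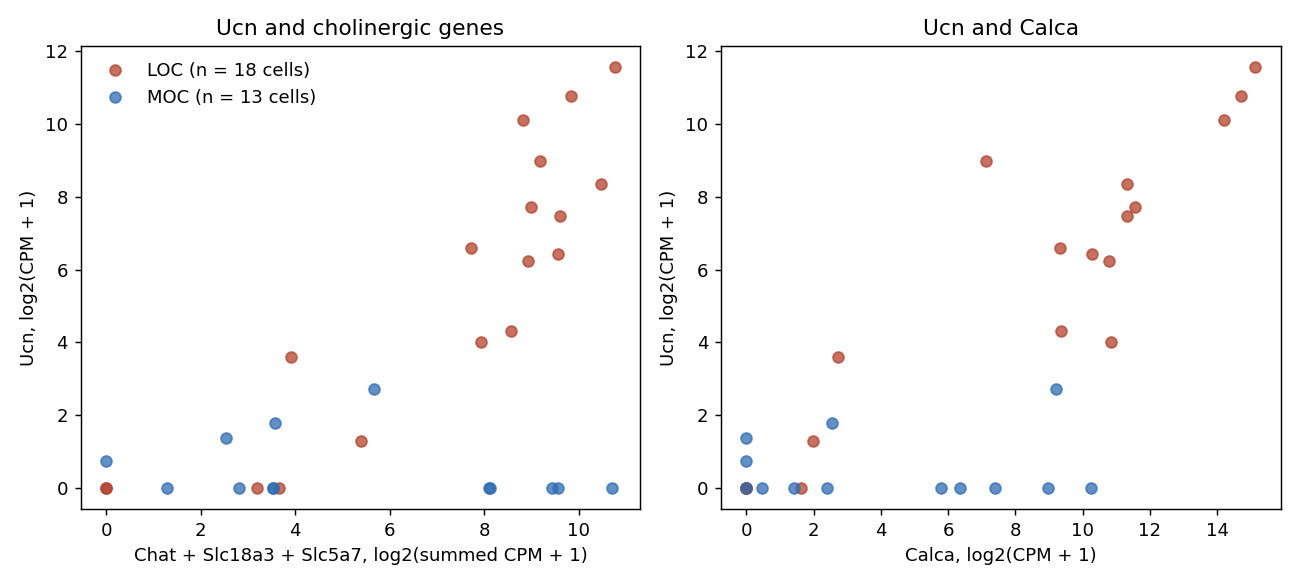
Ucn level against the summed level of Chat, Slc18a3 and Slc5a7 (left) and against Calca (right), each as log2(CPM + 1); points are single cells, LOC in red and MOC in blue. In LOC cells Ucn runs upward with both (Spearman rho 0.89 and 0.88 over 18 cells), and MOC cells with high cholinergic levels lie at 0 for Ucn.

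Calca, the gene of the peptide CGRP, stood beside Ucn in the same LOC cells. All 14 LOC cells with a Ucn read also held a Calca read, while 15 of all 18 LOC cells and 10 of 13 MOC cells held one. The same 12 LOC cells held at least 5 reads of each, and they are the 12 with at least 50 cholinergic reads. The Spearman coefficient between the Ucn and Calca levels was 0.88 over 18 LOC cells and 0.83 without the 2 cells farthest from the median of Calca. It was 0.75 in the 14 LOC cells with at least 10 cholinergic reads and -0.10 over the 13 MOC cells. For Npy, the neuropeptide Y gene, rho to Ucn over LOC cells was 0.58, and for Calcb, a close paralog of Calca, 0.58. The 5 genes closest to Ucn among 10949 genes read in at least 50% of LOC cells were Mcmbp, which encodes a binding protein of the replicative helicase (rho 0.93), Coro6, a coronin (0.90), Calca (0.88), Sart3, a factor of spliceosome recycling (0.88), and Gata3, a transcription factor needed for olivocochlear development in mice (0.87). They are the highest of 10949 values from 18 cells. The spans of Mcmbp, Sart3 and Gata3, introns included, overlap other annotated genes. Whether reads of those genes were counted for them is not known here.

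Crh and the other urocortins were at the limit of detection in both groups. Crh (chromosome 3, 19693401 to 19695396) had 8 reads in 6 LOC cells and 6 reads in 3 MOC cells, never more than 3 in a cell, which gave 0.56 CPM over LOC cells (0.24 to 1.11), against 0.44 CPM over MOC cells (0.16 to 0.96). The ratio was 1.28 (0.39 to 4.46), and no difference was detectable at this depth. Ucn3 (chromosome 13, 3940688 to 3945349) had 1 read in LOC cell 6 and none in MOC, where a count of 0 allows up to 0.220 CPM. Ucn2 (chromosome 9, 108986010 to 108987164) had 1 read in LOC cell 9, and 1 each in MOC cells 2 and 8. In the 12 LOC and 5 MOC cells with at least 50 cholinergic reads, neither Ucn2 nor Ucn3 had a read, and Crh had 3 reads in each group.

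Crhr1, the receptor gene for CRF and urocortin (chromosome 11, 104132855 to 104175523, plus strand), was read in about the same share of cells in both groups and at a higher summed level in LOC. Reads were present in 10 of 18 LOC cells (55.6%, 30.8 to 78.5) and in 7 of 13 MOC cells (53.8%, 25.1 to 80.8). Its level was 0, 2.57 and 231 CPM in the lowest, median and highest LOC cell, and 0, 1.12 and 41.4 CPM in the lowest, median and highest MOC cell. The groups overlapped over most of their range. The summed level was 28.5 CPM over LOC cells (25.8 to 31.4), against 4.91 CPM over MOC cells (3.81 to 6.24), a ratio of 5.80 (4.47 to 7.62). Mean log2(CPM + 1) was 2.47 ± 2.72 in LOC (SD, n = 18 cells) and 1.51 ± 1.82 in MOC (n = 13 cells), and the difference of 0.96 lay just under the size rule and within the spread between cells.

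The LOC cell with the most Crhr1 held no cholinergic reads. LOC cell 14 held 163 reads of Crhr1, 40.1% of all LOC reads of the gene, and 0 reads of Chat, Slc18a3, Slc5a7, Ucn and Calca. It held 458 reads (650.1 CPM) of Slc17a7, the gene of a vesicular glutamate transporter. Of the other genes of such transporters, it held 42 reads of Slc17a6 and 0 of Slc17a8. It also held 4 reads of tdTomato. Without it the summed LOC level was 17.9 CPM (15.7 to 20.3). MOC cell 11 gave 58.2% of the MOC reads, and without it the MOC level was 2.21 CPM (1.47 to 3.19). In cells with at least 50 cholinergic reads, Crhr1 had 227 reads in 8 of 12 LOC cells, or 21.5 CPM (18.8 to 24.5), and 9 reads in 2 of 5 MOC cells, or 1.96 CPM (0.90 to 3.72). LOC cell 5 held 116 of the 227 reads, and the 2 sets of cells overlapped. The difference passed 1 and met the size rule in 7 of 13 alternatives and in 14 of 31 with a cell left out. Among the 7 were thinning (1.01) and at least 10 cholinergic reads (1.18), the latter without LOC cell 14. Another of the 7, the 1% oligodendrocyte limit, kept LOC cell 14 as the only LOC cell (7.07). With only LOC cell 14 left out the difference was 0.64, the lowest with a cell left out.

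Crhr2, the gene of the other CRF receptor (chromosome 6, 55090049 to 55133016, minus strand), was scarce outside 1 MOC cell. It had 18 reads in 8 LOC cells, with at most 6 in a cell, and 122 reads in 4 MOC cells. MOC cell 2 held 108 of these, or 88.5%, and 120.5 CPM of Crhr2, and the next, MOC cell 1, held 11. The summed level was 1.26 CPM over LOC cells (0.75 to 2.0), against 8.95 CPM over MOC cells (7.43 to 10.7). Without MOC cell 2 the MOC level was 1.10 CPM (0.60 to 1.84), so the difference between the sums rested on that cell. The mean log2 difference was -0.24, with SDs of 1.17 in LOC and 2.08 in MOC; it was 0.25 without MOC cell 2 and 0.12 after thinning. MOC cell 2 held 45 cholinergic reads and 734 CPM on the 7-gene cholinergic and olivocochlear list. Of the vesicular glutamate transporter genes, it held 655 reads (731 CPM) of Slc17a7 and 1 read each of Slc17a6 and Slc17a8. It held reads of 19019 genes, in a range of 6654 to 19231 over the 31 cells. Leaving out the cells richer in inhibitory than in cholinergic markers kept 10 LOC and 4 MOC cells. The difference was then -1.09 and met the size rule in MOC. All 108 Crhr2 reads of these 4 MOC cells lay in MOC cell 2, so that call rested on the same cell.

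No cell held at least 5 reads of both receptor genes. At that limit Crhr1 was found in 7 LOC and 3 MOC cells and Crhr2 in 1 LOC and 2 MOC cells. With Crhr2 in so few cells, the lack of a cell with both does not show that the receptors exclude each other. At 1 read, 4 LOC and 3 MOC cells held both.

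**Figure D3:**
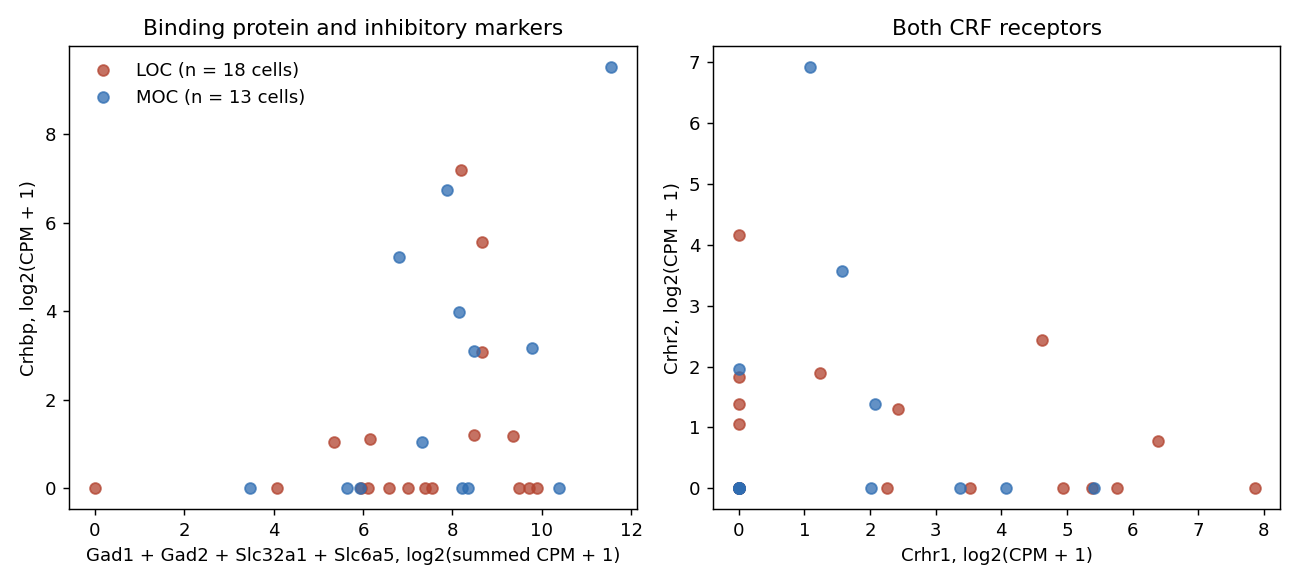
Crhbp level against the summed level of inhibitory markers (left) and Crhr2 level against Crhr1 level (right), each as log2(CPM + 1), with 1 point per cell, LOC in red and MOC in blue. MOC cell 8 is highest for Crhbp and for the inhibitory markers. No cell is high for both receptors, and few cells are high for Crhr2.

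The ligand gene and receptor genes occurred in the same LOC neurons, mostly at low receptor counts. Of the 14 LOC cells with a Ucn read, 13 also held a read of Crhr1 or Crhr2, while 14 of all 18 LOC cells held one. In MOC it was 3 of the 4 cells with a Ucn read and 8 of all 13 cells. With at least 5 reads required, 5 LOC cells held Ucn and a receptor, 7 Ucn alone, 3 a receptor alone and 3 neither. In MOC at that limit, 1 cell held Ucn and a receptor, 4 a receptor alone and 8 neither. The rho between Ucn and Crhr1 over LOC cells was 0.11, too weak in counts this sparse to describe a relation. The 5 genes closest to Crhr1 in LOC were Hexa, Gipc1, Cnksr2, Ccdc25 and Bmp1 (rho 0.82 to 0.89, 18 cells). In MOC they were Zbtb7b, Elovl2, Alkbh3, Rimklb and Kif1c (0.90 to 0.92, 13 cells). These are the highest of 10949 values in LOC and of 11721 in MOC. Hexa, Zbtb7b, Alkbh3, Rimklb and Kif1c overlap other annotated genes.

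**Figure D4:**
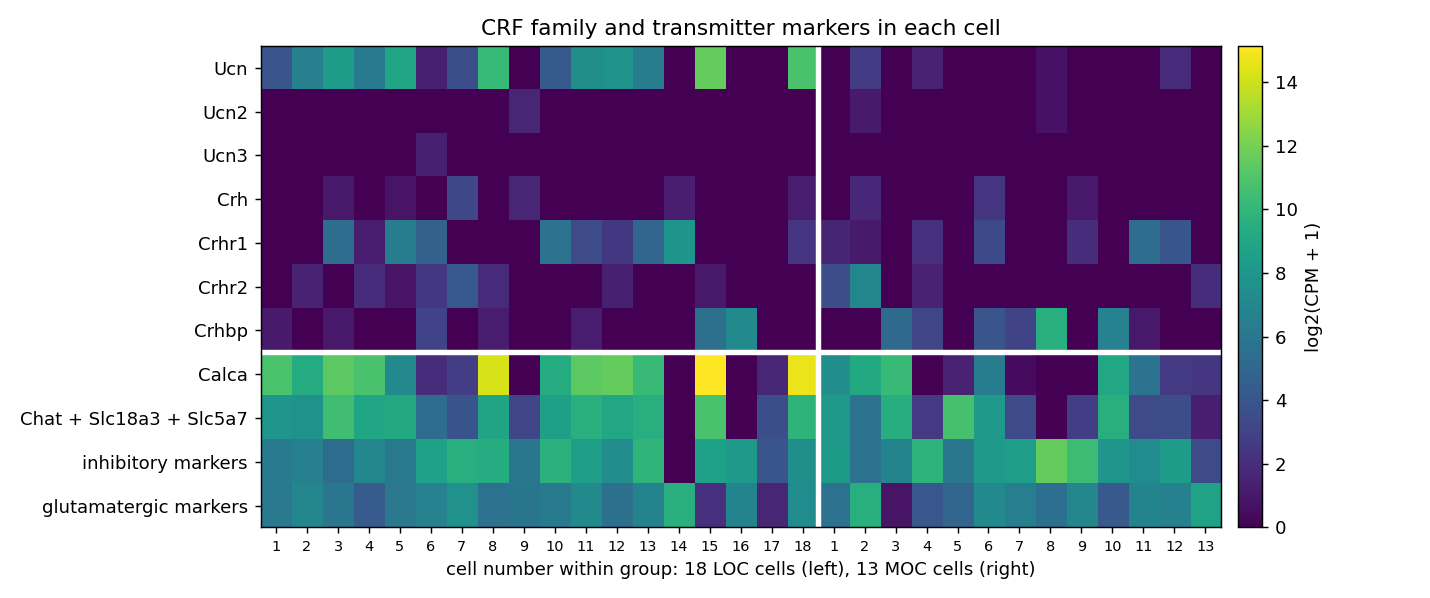
Level of the CRF family genes, of Calca and of summed transmitter markers in each of the 18 LOC cells (left) and 13 MOC cells (right), as log2(CPM + 1); columns are cells in the order of their label number. Ucn and Calca are high in the same LOC cells, and LOC cells 14 and 16 and MOC cell 8 show no cholinergic reads.

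Crhbp, the gene of the binding protein (chromosome 13, 95431371 to 95444924, minus strand), was higher in MOC and met the size rule there. It had 126 reads in 7 of 18 LOC cells and 1239 reads in 7 of 13 MOC cells. The level was 0 CPM in the lowest LOC cell and at the median and 146 CPM in the highest, against 0, 1.06 and 731 CPM in the lowest, median and highest MOC cell, so the groups overlapped. At least 5 reads were present in 3 of 18 LOC cells (16.7%, 3.58 to 41.4) and 6 of 13 MOC cells (46.2%, 19.2 to 74.9). The summed level was 8.84 CPM over LOC cells (7.36 to 10.5), against 90.9 CPM over MOC cells (85.9 to 96.1), and LOC cells averaged 1.13 ± 2.09 and MOC cells 2.52 ± 3.12 on the log2(CPM + 1) scale (SD over cells), a difference of -1.39.

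The highest Crhbp cell of each group held no cholinergic reads. MOC cell 8 gave 1059 reads, 85.5% of the MOC total, and Crhbp was its 156th most abundant gene. This cell held 0 reads of Chat, Slc18a3 and Slc5a7, 93 reads of tdTomato, and the highest sums of inhibitory markers (2990.2 CPM) and of microglial markers (7531 CPM) of all 31 cells. Without it the MOC level of Crhbp was 14.8 CPM (12.7 to 17.1), and the mean difference was -0.81 and no longer met the rule. The rule was also not met with a pseudocount of 10 (-0.72). Leaving out the 3 cells highest in microglial markers gave -0.91 and did not meet it either. These are MOC cell 8 again, and MOC cell 12 and LOC cell 9, which held 0 Crhbp reads. In LOC, cell 16 gave 58.7% of the reads, also with 0 cholinergic reads, and the LOC level without it was 3.78 CPM (2.82 to 4.96). In cells with at least 50 cholinergic reads, Crhbp had 4.45 CPM in LOC (3.27 to 5.91, 5 of 12 cells) and 33.5 CPM in MOC (28.4 to 39.3, 3 of 5 cells), and the mean difference was -2.34. The 3 MOC cells were cells 3, 6 and 10, at 48, 11 and 95 reads, beside 43 reads in LOC cell 15, so the sets overlapped. The rho of Crhbp to the summed inhibitory markers was 0.25 over 18 LOC cells, 0.31 over 13 MOC cells and 0.35 over all 31, and to Slc6a5, the glycine transporter gene of inhibitory neurons, it was 0.40, 0.49 and 0.46. MOC cell 9, at 1342 CPM of inhibitory markers, held no Crhbp read, and the part of inhibitory cells in the Crhbp level was not tested. The 5 genes closest to Crhbp over 13 MOC cells were Mfn2, Tceal5, Ciao2b, Cops9 and Uba1 (rho 0.84 to 0.91). They are the highest of 11721 values, and Mfn2 and Ciao2b overlap other annotated genes.

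**Figure D5:**
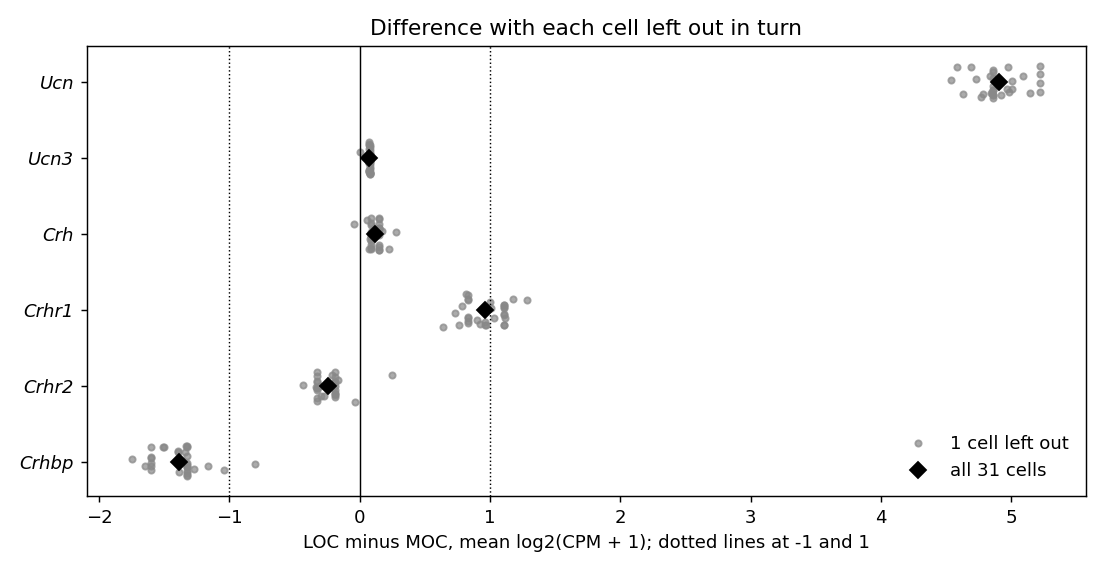
Difference of mean log2(CPM + 1), LOC minus MOC, for each member with all 31 cells (diamonds) and with each cell left out in turn (grey points); dotted lines mark the size rule's difference of 1. Ucn stays between 4.54 and 5.22, Crhr1 lies on both sides of 1, and Crhbp reaches -0.81 without MOC cell 8.

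Per kilobase of exon the order of the genes differed between the groups. In LOC the summed level was 921 CPM per kb for Ucn, 11.6 for Crhr1, 4.91 for Crhbp, 0.43 for Crh, 0.25 for Crhr2, 0.061 for Ucn2 and 0.047 for Ucn3. In MOC it was 50.5 CPM per kb for Crhbp, 2.0 for Crhr1, 1.75 for Crhr2, 1.31 for Ucn, 0.33 for Crh and 0.13 for Ucn2, and Ucn3 was at 0. In LOC the counting intervals of Ucn, Crhr1 and Crhbp lay apart, and from Crh downward each gene's interval overlapped that of the next. In MOC only that of Crhbp lay apart from its neighbour. The spread between cells was wider than these intervals, and the highest cell alone set some places in the order: without it MOC levels were 8.21 CPM per kb for Crhbp, 0.90 for Crhr1 and 0.21 for Crhr2.

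Genes of signalling downstream of the CRF receptors were read in both groups and showed no common direction. All 38 genes of the list of G proteins, adenylyl cyclases, protein kinase A subunits, CREB factors, arrestins, receptor kinases and phosphodiesterases were measured. The size rule was met by 2 in LOC and 2 in MOC, shares near those of all measured genes (6.07% and 5.67%), so the genes named below do not set the list apart. The median difference was -0.10 beside -0.07 over all measured genes. Prkar1a, a regulatory subunit of protein kinase A, had the most reads, at 385 CPM over LOC cells, against 477 CPM over MOC cells. Grk3, a kinase that desensitizes G protein-coupled receptors, had 47.7 CPM over LOC cells (44.2 to 51.4), against 7.99 CPM over MOC cells (6.56 to 9.64), and met the rule with each cell left out in turn. Gnaq, the G protein subunit that activates phospholipase C, had 98.3 CPM over LOC cells, against 49.1 CPM over MOC cells, at the edge of the rule's ratio. Its ratio was under 2 with TMM library sizes, at 96.7 CPM over LOC cells, against 52.8 CPM over MOC cells, and it left the rule without any of 15 cells taken singly. Gnal, a stimulatory G protein subunit, had 36.7 CPM over LOC cells, against 96.4 CPM over MOC cells, and 64.4 CPM in MOC without MOC cell 8, which no longer met the rule. Nor did Gnal meet it with a pseudocount of 10 (-0.79). In the cells with at least 50 cholinergic reads, which leave out MOC cell 8, Gnal met it at 31.5 CPM over LOC cells, against 96.0 CPM over MOC cells. Adcy9, an adenylyl cyclase, had 4.28 CPM over LOC cells, against 20.5 CPM over MOC cells, and 7.96 CPM in MOC without MOC cell 13. It also left the rule without MOC cell 4, 7 or 12, and in the cells with at least 50 cholinergic reads it had 4.82 CPM over LOC cells, against 3.27 CPM over MOC cells. Gnaq, Gnal and Adcy9 overlap other genes.

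Among 16 genes of the other secretin-class receptors and their accessory proteins, 11 were measured and 1 met the rule, in MOC, where 5.67% of all measured genes did, which is too few to set the list apart. The median difference was -0.17, beside -0.07 over all measured genes. That gene was Vipr1, a receptor for vasoactive intestinal peptide, at 0.77 CPM over LOC cells, against 14 CPM over MOC cells, of which MOC cell 13 gave 87.4%; without that cell the MOC level was 1.85 CPM and the rule was not met. Ramp1, the accessory protein of the CGRP receptor, had the most reads, at 81.4 CPM over LOC cells, against 185 CPM over MOC cells (115 CPM without MOC cell 7).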

How the data were processed

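Single-cell libraries of 18 LOC and 13 MOC neurons were described from the authors' deposited table of raw counts per gene (55421 mouse genes; 19 added sequences, with 0.0173% of counts, were left out). The authors also deposited a normalized signal table of 20784 genes, in which each column is the raw count times 1 constant; it served for symbols and as an alternative. The submitters' processing notes name bcl2fastq, STAR 2.5.2, DESeq2, edgeR, limma and the build GRCm38 (mm10), without roles; the sources used here do not say whether counting used strand. Symbols and coordinates of other genes came from GENCODE M21.

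CPM were computed per cell over mouse genes, with a pseudocount of 1 on the log2 scale. Group levels are summed counts over summed totals with exact 95% Poisson intervals, and shares have exact 95% Clopper-Pearson intervals. Ratios of summed levels have exact 95% binomial intervals on the pooled reads of both groups, which leave out the spread between cells. A count of 0 was read as at most 3 counts. No columns were identical, and cells are not replicates because no animal is named, so no p-value was computed. The size rule was run on simulated counts with 200 altered genes, all abundant and changed by far more than the rule's ratio. That run cannot tell how the rule does on sparse genes or on reads held by single cells. Genes named are all members and Ucn2, list genes meeting the size rule and the most abundant of each list, marker genes touching a result, the 5 genes most like a member by Spearman rho among genes read in at least 50% of cells, and Calca, Calcb and Npy. Members and lists were chosen with earlier results of these data known. Alternatives covered pseudocount, library size (TMM from edgeR 4.0.16 in R 4.3.3), thinning, cell filters and leaving out each cell. Other steps used Python 3.11.15, pandas 2.3.3 and scipy 1.17.1.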

Additional observations from a re-analysis of the deposited data

How the results depend on the processing

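Of 13 alternatives to the Ucn difference of 4.90 (12 for Crh and Ucn3, which the authors' normalized table does not list), all but 1 kept Ucn higher in LOC. Taking group sums in place of cell means gave 8.13 for Ucn, 2.32 for Crhr1, -2.14 for Crhr2 and -3.22 for Crhbp. Leaving out cells with over 1% of counts on oligodendrocyte markers left 1 LOC cell, number 14, and 4 MOC cells, and gave -1.03 for Ucn, 7.07 for Crhr1 and -2.57 for Crhr2, with the size rule met by 3455 genes for LOC and 3885 for MOC; the 10% limit was added after seeing the data. The Crhbp difference of -1.39 left the rule with a pseudocount of 10 (-0.72), without the 3 cells highest in microglial markers (-0.91, MOC cell 8 among them) and without cells above 1% (-0.79) or 10% (-0.88) oligodendrocyte markers. The genes meeting the rule, 1078 in LOC and 1007 in MOC, became 370 in LOC and 209 in MOC with a pseudocount of 10, 3107 and 2483 without cells richer in inhibitory markers, 1730 in LOC with at least 10 cholinergic reads, 2622 in LOC and 1762 in MOC with at least 50, and 1782 in LOC without cells above 10% oligodendrocyte markers. Median-of-ratios sizes gave 844 in LOC and 1325 in MOC. Apart from the 1% limit, which leaves 1 LOC cell, the cause of these shifts was not tested. With 1 cell left out, the ranges were 4.54 to 5.22 for Ucn, 0 to 0.077 for Ucn3, -0.04 to 0.28 for Crh, 0.64 to 1.28 for Crhr1, -0.44 to 0.25 for Crhr2, -1.75 to -0.81 for Crhbp, -0.30 to 0.08 for the signalling list, -0.38 to -0.04 for the secretin-class list, 1012 to 1330 genes in LOC and 909 to 1157 in MOC. No paired analysis was possible because the results come from no test and cell numbers only name cells. A count of 0, read as at most 3 counts, stands for up to between 2.14 and 8.42 CPM in a LOC cell and between 1.14 and 5.02 CPM in a MOC cell.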
